A study of Mus musculus with 9 samples.

Results

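The genes described here encode the cytosolic translation factors (initiation, elongation and release) and the cytosolic and mitochondrial aminoacyl-tRNA synthetases of the mouse. The rule for members reads symbols only: protein-coding genes named as an eIF, an eEF, the release factors Etf1, Gspt1 and Gspt2, or a synthetase ending in "ars" or "ars2", together with Eprs. The kinases of eIF2 and the Y-linked Eif2s3y were left out of the set. Of 48709 genes in each count table, 100 were members, and 96 of these had enough reads to be tested among 17361 genes.

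RNA was sequenced from nuclei of frozen hippocampi that had been sorted for NeuN, a neuronal nuclear protein encoded by Rbfox3. The 3 groups held 3 libraries each, taken here as 1 mouse per library. The methods of the study give n = 3 per group for the nuclei. The protocol text speaks of 6 animals in a group, and no label says whether animals were pooled. WT vehicle mice were C57BL/6J. Tg4-42 vehicle mice were on the same background and carried, on both alleles, a transgene in which the murine Thy1 promoter drives human Aβ4-42 with the signal peptide of murine thyrotropin-releasing hormone. Tg4-42 caffeine mice had the same genotype and drank water with 300 mg caffeine per litre for 4 months, from 2 to 6 months of age, while vehicle mice drank tap water. All mice were 6 months old when tissue was taken. The sample labels name the treatment only for the caffeine mice, so that of the others rests on the methods of the study. The 3 groups included no caffeine-treated WT mice. A response to caffeine particular to Tg4-42 mice therefore cannot be told apart from a general one. RNA of the transgene was not analysed here.

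Each of the 9 libraries held between 9342945 and 16376922 counts on exons. Levels are given as counts per 1000000 (CPM) after TMM scaling. Levels of different genes are compared as CPM per kb of exon, except where CPM or counts are named. Sums over lists of markers are CPM without correction for gene length, and do not measure shares of cells. At this depth, 3 counts equal 0.19 to 0.325 CPM. The Y-linked genes Ddx3y, Uty, Kdm5d and Eif2s3y were well above that limit in all 9 libraries. The neuronal markers Rbfox3, Snap25 and Syt1 were present in every mouse. Markers of other cells were present too: over the 9 mice, those of oligodendrocytes and their precursors summed to 230 to 466 CPM, astrocytes to 72.2 to 127, microglia to 42.7 to 77.5, and endothelial cells and pericytes to 4.98 to 11.75, against 5373 to 7976 for pan-neuronal markers. Pairs of mice within a group had a chi-square of 8.98 to 21.1 per degree of freedom, so each library was counted as a sample of its own. In nuclei sorted from a tissue, fewer cells of a type and less RNA per cell cannot be told apart.

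Translation of an mRNA starts when eIF2, loaded with GTP and the initiator tRNA, joins the small ribosomal subunit together with eIF1, eIF1A, eIF3 and eIF5. The eIF4F complex (cap-binding eIF4E, scaffold eIF4G and helicase eIF4A) brings the mRNA to that subunit, and the eIF4E-binding proteins compete with eIF4G when mTORC1 is low. Under amino acid shortage or other stress, kinases phosphorylate eIF2α, which then blocks the exchange factor eIF2B. General initiation slows while ATF4 is made, and ATF4 raises transcription of amino acid transporters, biosynthetic enzymes and many cytosolic synthetases, a programme called the integrated stress response. Elongation factors eEF1A and eEF2 deliver aminoacyl-tRNA and move the ribosome, and eRF1 and eRF3 end the chain. Synaptic plasticity in the hippocampus is known to depend on this control.

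Nuclear levels of these genes spanned a wide range. Summed over the 9 libraries, 90 members held at least 1000 counts in all and 10 held fewer. Eif1b, a paralogue of the start codon factor eIF1, had the highest mean level at 93.8 CPM per kb, followed by the asparaginyl-tRNA synthetase Nars at 65.7, the seryl-tRNA synthetase Sars at 60.6, the helicase Eif4a2 at 53.6 and the elongation factor Eif5a at 52.9. Cytosolic synthetases had a median of 17.4 CPM per kb and ranged from 9.25 for the threonyl enzyme Tars to 65.7. Mitochondrial synthetases had a median of 6.62 and ranged from 1.35 for Wars2 to 37.2 for Lars2, the mitochondrial leucyl enzyme. Of all members, Lars2 had the most counts (49831).

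**Figure D1:**
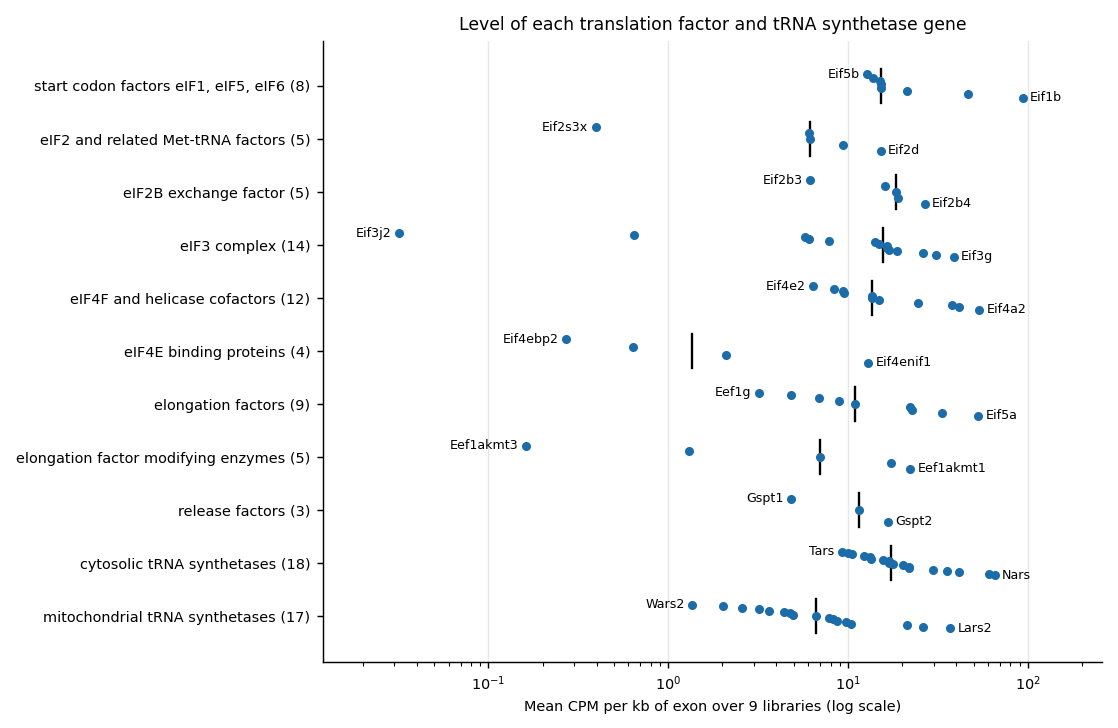
Mean level of each member over 9 libraries in CPM per kb of exon (log scale), by the role of its product; black bars are medians and the number of members stands in brackets. Eif4e1b, at 0 counts, cannot be drawn on a log axis. Eif1b is highest at 93.8 and Eif3j2 is the lowest point at 0.0319.

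A few members stood far below the subunits they work with. The X-linked Eif2s3x, which encodes the γ subunit of eIF2, had 183 counts over the 9 libraries, between 0.846 and 1.83 CPM per mouse. Its Y-linked copy Eif2s3y, which is not a member, had 38122 counts and 280 to 363 CPM. Per kb these were 0.394 and 74.8, against 6.16 for the α subunit gene Eif2s1 and 6.08 for the β subunit gene Eif2s2. Of all 50-base words in the exons of Eif2s3x, 34.6% also occur in another gene, so reads from those words cannot be assigned to 1 gene. The cap-binding repressor gene Eif4ebp2 had 192 counts although none of its 50-base words are shared, while Eif4ebp1 had 563. Eif3j1 had 457 counts with 50.9% of words shared, mostly with Eif3j2, which had 9 counts and 91.9% shared. The reason for the low counts was not tested.

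**Figure D2:**
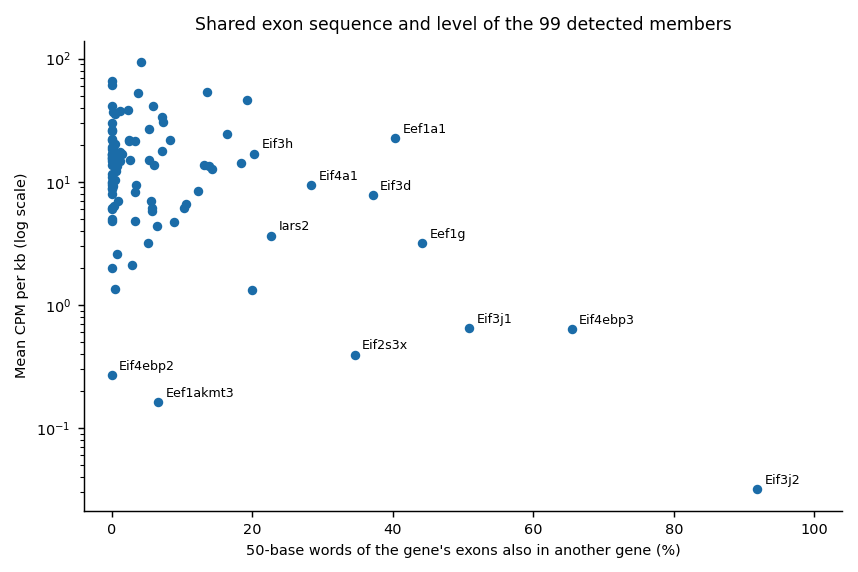
Share of each member's 50-base exon words that also occur in the exons of another gene (horizontal, percent) and its mean level in CPM per kb (vertical, log scale) for the 99 members with at least 1 count. Members over 20% shared or under 1 CPM per kb are named; Eif4ebp2 is low with none shared, and Eef1a1 is at 22.7 CPM per kb with 40.4% shared.

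The 4 members below the count filter were not tested. Eif4e1b, known from oocytes, had 0 counts in all 9 libraries, which allows at most 0.325 CPM in the shallowest library. Eif4ebp3 held 57 counts, Eef1akmt3 held 56 and Eif3j2 held 9. Over 20% of 50-base words were shared in 10 members, among them Eef1a1 (40.4%), Eef1g (44.2%) and Eif4a1 (28.4%), and their levels are uncertain for that reason.

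Paralogues of a factor differed in level in the same direction in every mouse. Eif4a2 was 4.67 to 7.08 times as high as Eif4a1 per kb, and Eif4a3, part of the exon junction complex, lay between them at 24.5 CPM per kb. Gspt2, an X-linked intronless copy of the eRF3 gene, was 2.98 to 3.77 times as high as Gspt1. Eif5a was 7.71 to 16.5 times as high as Eif5a2. The ubiquitous Eef1a1 was 1.57 to 2.74 times as high as Eef1a2, the form used by mature neurons and muscle, with the reservation on shared sequence given above. Eif4g2, which encodes an eIF4G relative that lacks the eIF4E site, was 1.98 to 3.61 times as high as Eif4g1, and Eif4e was 1.61 to 2.53 times as high as Eif4e2. These ratios are of RNA in nuclei and describe no protein.

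The first comparison asked whether the transgene moved these genes. In Tg4-42 vehicle against WT vehicle mice, no member passed an adjusted p of 0.05 in edgeR's quasi-likelihood test, where 17 of 17361 genes did (0.0979%), and DESeq2 also called 0 members. At an unadjusted p under 0.05, 0 members were higher (1.65% of all genes were) and 1 was lower (1.09% of all genes were). The median log2 fold change of the 96 members was -0.06, against 0.00 over all genes, and 29 of the 96 were above 0. The 95% interval of the fold change lay within 2-fold for 94 of the 96 members and within 1.5-fold for 86, against 79.1% and 55.2% of all genes tested. Tg4-42 vehicle mice lay wholly above the WT mice in 0 members and wholly below in 2, against 620 and 548 of 17361 genes.

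The member below that unadjusted threshold was Eef1akmt1, which encodes a lysine methyltransferase of eEF1A (chr14:57549597-57571612, minus strand, mm10). WT mice had 22.9, 35.6 and 23.4 CPM, Tg4-42 vehicle mice 20.8, 17.5 and 20.6, and Tg4-42 caffeine mice 19.99, 15 and 13.8. Both Tg4-42 groups lay wholly below the WT mice, of which the second was well above the others. The log2 fold change was -0.48 ± 0.20 (SE, n = 3 per group) in Tg4-42 vehicle mice with an adjusted p of 1.0 in edgeR. Without WT mouse 2 it was -0.24.

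Several roles had nearly all members slightly lower in Tg4-42 vehicle mice, none past the threshold. All 8 genes listed as start codon factors had a negative fold change (median -0.10), as did 12 of 13 tested eIF3 genes (median -0.10). So did 9 of 11 genes of eIF4F and its cofactors (median -0.06). The start codon list holds Eif1, Eif1a, Eif1ad, Eif1ax, Eif1b, Eif5, Eif5b and Eif6, and not all of these act at the start codon. Elongation factors had a median of -0.12 with 2 of 9 above 0. Eef1a1 had 59.5, 74.8 and 45.6 CPM in WT mice, against 46.3, 45.7 and 52.5 in Tg4-42 vehicle mice. Its log2 fold change was -0.32 ± 0.16 (adjusted p of 1.0, edgeR), and the groups overlapped.

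WT mouse 2 had the highest values in several of these roles. Relative to each gene's mean over 9 mice, on the scale of log2(CPM + 0.5), its median was 0.33 for elongation factors, 0.30 for eIF3 and 0.23 for start codon factors, while WT mouse 3 had -0.06, -0.11 and -0.06. The median of all members against WT was 0.00 without WT mouse 2 and -0.13 without WT mouse 3, so the position of that median depends on which WT mice are kept. Cytosolic synthetases had a median log2 fold change of -0.01 (9 of 18 above 0) and mitochondrial synthetases 0.06 (11 of 17 above 0). Among cell type markers, interneuron genes had a median of 0.25 (9 of 10 above 0), microglial genes 0.29 (7 of 7) and oligodendrocyte genes 0.26 (7 of 7) in the same comparison. None of these was called, and their part in the members' values was not tested.

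**Figure D3:**
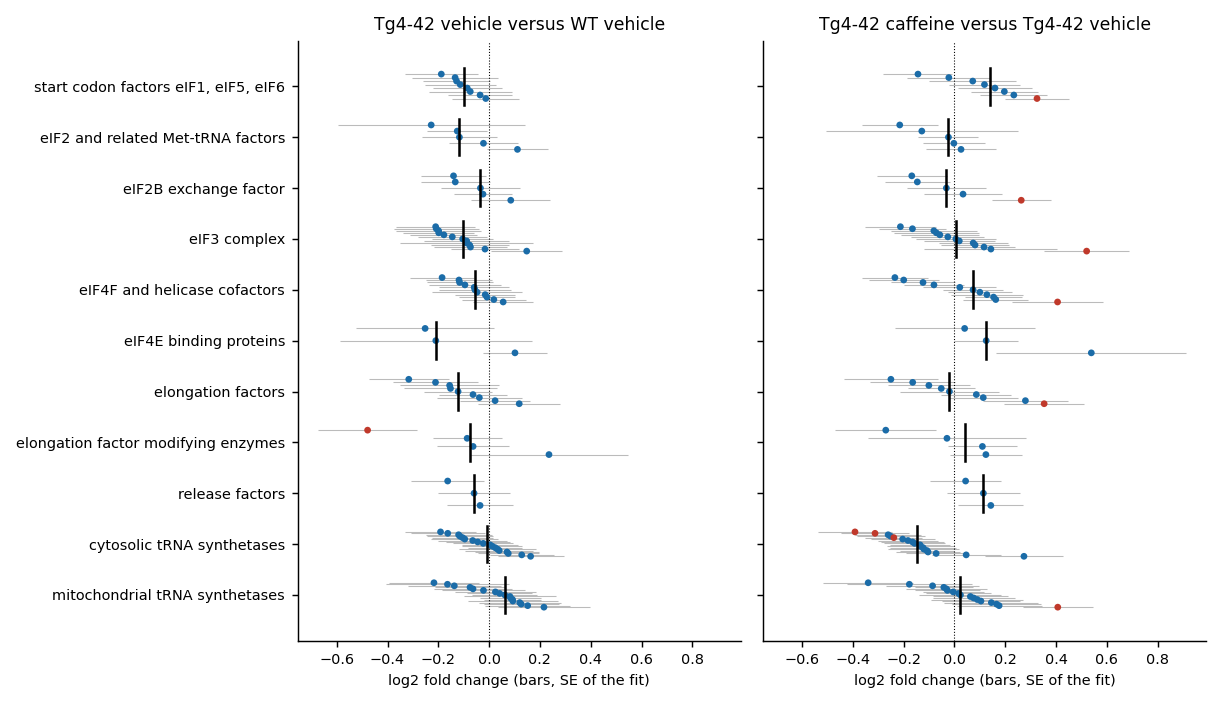
log2 fold change of each tested member with the SE of the fit (grey bars), by role, for the transgene (left) and for caffeine within Tg4-42 mice (right); black bars are medians and red points have an unadjusted p under 0.05. No point passes an adjusted p of 0.05. On the right, 16 of 18 cytosolic synthetases lie below 0.

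The second comparison asked what caffeine did in Tg4-42 mice. Against Tg4-42 vehicle mice, 0 of 96 members passed an adjusted p of 0.05 in edgeR, where 153 of 17361 genes did (0.881%), and DESeq2 also called 0 members. At an unadjusted p under 0.05, 6 members were higher (7.15% of all genes were) and 3 were lower (9.82% of all genes were). Together these were 9.375% of the members, against 16.97% of all genes. With library totals as the only scaling, 8 were higher and 1 was lower. Without caffeine mouse 2 or caffeine mouse 3, 3 members were under this unadjusted threshold, and without Tg4-42 vehicle mouse 3, 5 did, all of them higher. The median log2 fold change was -0.00 (all genes -0.01), and 47 of 96 were above 0. The 95% interval lay within 2-fold for 95 of 96 members and within 1.5-fold for 78, against 73.1% and 42.1% of all genes. Caffeine mice lay wholly above the vehicle mice in 8 members and wholly below in 7, against 1800 and 2185 of 17361 genes. Groups without overlap were therefore common over all genes.

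Among initiation factors, Eif3f had the smallest p of all members. It encodes a subunit of eIF3 outside the core that is conserved in yeast (chr7:108934417-108942951, plus strand). Tg4-42 vehicle mice had 13.6, 15.1 and 14.9 CPM and caffeine mice 21.2, 19.2 and 22.4. The 2 groups did not overlap, whereas WT mice, at 14.6, 20.3 and 15.7, spanned the gap. The log2 fold change was 0.52 ± 0.17 with an adjusted p of 0.133 in edgeR. Eif3a, the largest subunit and the eIF3 gene with the highest CPM, had 0.08 ± 0.13, and the 13 tested eIF3 genes had a median of 0.01.

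Eif5b encodes the GTPase that joins the ribosomal subunits (chr1:37998010-38055579, plus strand). It had 124, 116 and 102 CPM in vehicle mice and 145, 149 and 135 in caffeine mice, with no overlap. The log2 fold change was 0.33 ± 0.13 and the adjusted p 0.207 in edgeR. Its exons overlap Rev1 on the opposite strand over 1643 bases, and 14.3% of its 50-base words are shared. Eif5, the GTPase-activating protein of eIF2, had 0.23 ± 0.13 with overlapping groups. The 8 start codon factors had a median of 0.14, with 6 above 0.

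The roles of eIF2 with related factors and of eIF2B had median log2 fold changes of -0.02 and -0.03, with genes on both sides of 0. Eif2s1, whose product is the phosphorylated α subunit, had 29.9, 28.2 and 35.1 CPM in vehicle mice and 28.9, 28.4 and 23.0 in caffeine mice, a log2 fold change of -0.22 ± 0.15. Eif2s2 had 0.03 ± 0.14. Of the 5 eIF2B genes, Eif2b4 (δ subunit, chr5:31187558-31193430, minus strand) had 63.1, 64.8 and 66.8 CPM in vehicle mice and 77.5, 76.7 and 79.5 in caffeine mice. That is 0.26 ± 0.12, with an adjusted p of 0.266 in edgeR and no overlap. The other 4 lay between -0.17 for Eif2b1 and 0.03 for Eif2b5, each with overlapping groups.

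Within eIF4F, values went in both directions. Eif4e3, which encodes an atypical cap-binding protein, had 15.5, 21.4 and 19.4 CPM in vehicle mice and 21.5, 24.1 and 29.1 in caffeine mice. Its log2 fold change was 0.41 ± 0.18 (adjusted p of 0.262, edgeR), and the groups were separated by a narrow gap. Eif4e itself had -0.23 ± 0.13 with overlapping groups, and Eif4e2 had -0.12 ± 0.13. The scaffolds Eif4g1, Eif4g2 and Eif4g3 had 0.07 ± 0.12, -0.20 ± 0.14 and 0.15 ± 0.11. The helicases Eif4a1, Eif4a2 and Eif4a3 had 0.10 ± 0.13, -0.08 ± 0.12 and 0.13 ± 0.14. Eif4ebp2 had the largest fitted difference of any member, 0.54 ± 0.37, but on 192 counts, with overlapping groups. Eif4ebp1 had 0.04 ± 0.28, and Eif4enif1, which carries eIF4E into the nucleus, had 0.12 ± 0.13.

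Of the elongation factors, Eef1a1 (chr9:78478449-78489151, minus strand) had 46.3, 45.7 and 52.5 CPM in vehicle mice and 67.7, 58.3 and 58.7 in caffeine mice. Groups did not overlap, and the log2 fold change was 0.35 ± 0.16 with an adjusted p of 0.27 in edgeR. WT mice, at 45.6 to 74.8, covered both groups. Its neuronal paralogue Eef1a2 had -0.10 ± 0.16. Eif5a had 0.28 ± 0.17 with no overlap, and Eif5a2 had -0.25 ± 0.19 with overlap. Eef2 and its kinase gene Eef2k, whose product slows elongation when calcium rises, had 0.11 ± 0.14 and 0.12 ± 0.14. The release factor genes Etf1, Gspt1 and Gspt2 had 0.04, 0.11 and 0.14.

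**Figure D4:**
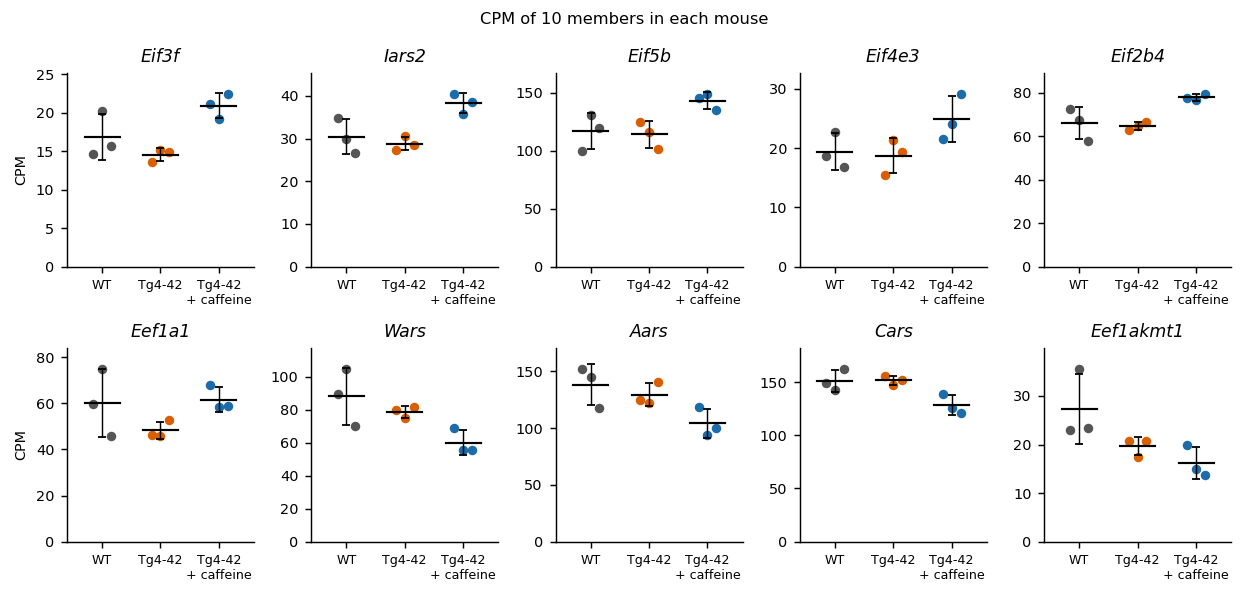
CPM of 10 members in each of the 9 mice (points), with the mean and SD of each group of 3: the 9 members with an unadjusted p under 0.05 for caffeine against vehicle in Tg4-42 mice, and Eef1akmt1. Axes start at 0. In each of those 9 members the WT mice overlap the Tg4-42 vehicle mice.

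Among roles with over 3 tested members, cytosolic tRNA synthetases had the largest share of members on one side. All 3 tested genes of the eIF4E-binding proteins and all 3 of the release factors were above 0. In caffeine mice 2 of 18 were above the Tg4-42 vehicle mice (48.5% of all genes were) and 16 below, with a median log2 fold change of -0.15 (all genes -0.01). At an unadjusted p under 0.05, 3 were lower, where 9.82% of all genes were. None passed the adjusted threshold. Summed over the 18 genes, WT mice had 2340, 2293 and 2115 CPM, Tg4-42 vehicle mice 2241, 2172 and 2316, and caffeine mice 2085, 1945 and 1936. Each caffeine mouse was below each of the other 6 mice on this scale. With library totals as the only scaling, caffeine mice had 2082, 2015 and 2015 CPM, still below the Tg4-42 vehicle mice (2153 to 2273), but WT mouse 3 had 2072. Under the other settings tried, the median was between -0.20 and -0.09 and 15 to 17 of the 18 were below 0. No cytosolic synthetase was lower at an unadjusted p under 0.05 without Tg4-42 vehicle mouse 3, caffeine mouse 2 or caffeine mouse 3. In the same comparison, markers of dentate granule cells had a positive median and those of interneurons, CA1 neurons and glia negative ones, with the values given further on. Their part in these sums was not tested.

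Wars, the tryptophanyl enzyme (chr12:108860030-108894174, minus strand), had 79.7, 74.9 and 81.8 CPM in Tg4-42 vehicle mice and 69.0, 55.5 and 55.7 in caffeine mice, with no overlap. WT mice had 89.8, 104.7 and 70.2. The log2 fold change for caffeine was -0.39 ± 0.15 with an adjusted p of 0.19 in edgeR. Aars, the alanyl enzyme (chr8:111033144-111057664, plus strand), had 125, 123 and 141 CPM in vehicle mice and 119, 93.8 and 100.1 in caffeine mice. That is -0.31 ± 0.13 with an adjusted p of 0.246. Its exons overlap Exosc6 on the same strand over 1326 bases. Cars, the cysteinyl enzyme, had 156, 147 and 152 CPM in vehicle mice against 139, 125 and 121, which is -0.24 ± 0.11 with an adjusted p of 0.293 in edgeR.

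Other cytosolic enzymes had smaller differences. Sars, with the highest CPM of the role, had 339, 306 and 352 CPM in vehicle mice and 252, 307 and 279 in caffeine mice (-0.25 ± 0.13), and Nars had -0.20 ± 0.13. Kars, which charges lysine in the cytosol and the mitochondrion, had -0.12 ± 0.14. The 2 genes above 0 were the glycyl enzyme Gars (0.05 ± 0.14) and the valyl enzyme Vars (0.27 ± 0.15). The subunit genes Farsa and Farsb, whose symbols lie outside the rule, had 0.02 and -0.14.

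Of the mitochondrial synthetases, 10 of 17 were above 0, with a median of 0.02. The difference between the 2 roles was not tested. Iars2, the isoleucyl enzyme (chr1:185284726-185329396, minus strand), had 27.4, 30.5 and 28.6 CPM in vehicle mice and 40.4, 35.8 and 38.6 in caffeine mice, against 34.8, 29.9 and 26.6 in WT mice. Its caffeine mice were above all 6 others, and the log2 fold change was 0.41 ± 0.14 with an adjusted p of 0.149 in edgeR. Of its words, 22.7% are shared with other genes and 2148 exon bases overlap neighbours on the opposite strand. Lars2 had 0.09 ± 0.18.

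**Figure D5:**
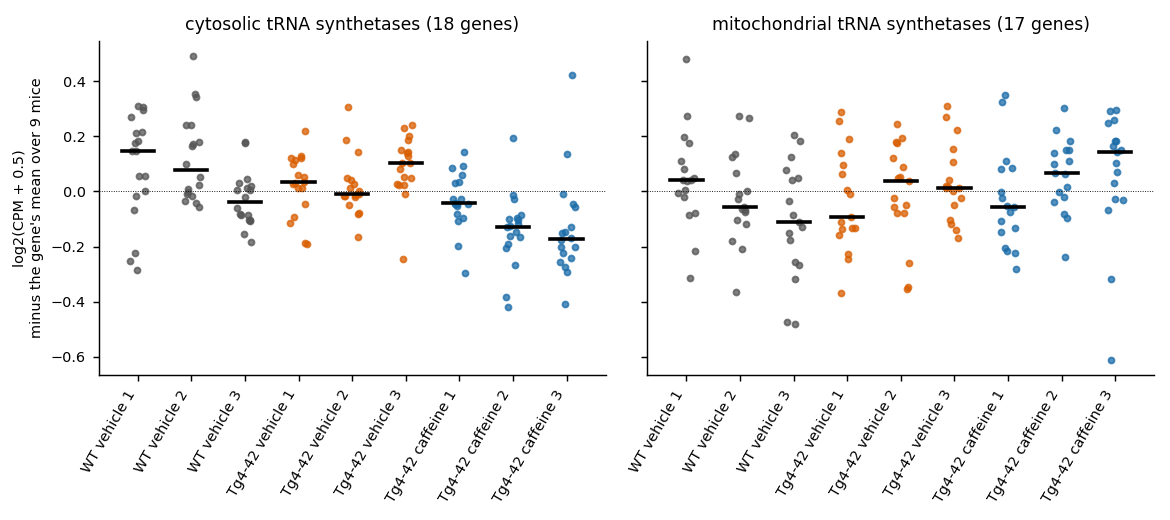
Each synthetase gene in each mouse as log2(CPM + 0.5) minus that gene's mean over the 9 mice, for 18 cytosolic (left) and 17 mitochondrial (right) genes; black bars are medians of a mouse. The 3 caffeine mice have cytosolic medians of -0.04, -0.13 and -0.17, against -0.01 to 0.10 in Tg4-42 vehicle mice and -0.04 to 0.15 in WT mice.

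Promoters of cytosolic synthetases are known targets of ATF4, which binds, as a dimer with a C/EBP protein, elements of the form TGATGNAA. That form and its reverse complement TTNCATCA were searched on both strands in RefSeq promoter windows from 250 bases before to 50 after the start (GRCm38.p6). Windows were found for 71 of 100 members. A match lay in 7 of those 71 genes (9.86%), against 4.51% of 27025 genes with a window. Of the 10 cytosolic synthetase genes with a window, 5 held it, while 0 of 14 mitochondrial ones did. Wars, Cars and Nars had no window and so were not searched, although Wars and Cars were among the lower genes above. A match in each of the 5 cytosolic synthetases is shown because this role had the lowest median in caffeine mice. A match describes letters and not a bound site. Each run of 30 bases is written 5′ to 3′ along the gene, with the match in capitals, and the position is that of the first base of the match, counted from 1 at the start of transcription and from -1 before it.
Aars, chr8:111033840-111033869, plus strand, match from 10: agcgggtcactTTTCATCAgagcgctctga
Yars, chr4:129189895-129189924, plus strand, match from 4: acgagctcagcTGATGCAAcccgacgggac
Gars, chr6:55037960-55037989, plus strand, match from -30: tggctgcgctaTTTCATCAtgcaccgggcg
Iars, chr13:49682126-49682155, plus strand, match from 8: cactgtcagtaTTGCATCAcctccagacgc
Tars, chr15:11399655-11399684, minus strand, match from -15: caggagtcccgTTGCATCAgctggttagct
Values of these 5 genes were not alike. Aars was at -0.31, Yars at -0.18, Tars at -0.17 and Iars at -0.07, while Gars was at 0.05 (log2 fold change, caffeine against Tg4-42 vehicle). Dars, Eprs, Kars, Qars and Sars had a window without a match. Of these, Sars lay below all the matched genes but Aars, and Kars lay below Iars and Gars. Whether a match goes with a lower value was not tested. Outside the synthetases, matches lay in Eef2k, at -84, and Eif2s3x, at -96.

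Genes around the members were read from lists of regulators and partners. Of 21 tested targets of the integrated stress response, 6 were above 0 with caffeine and the median was -0.15. None was called at an adjusted p of 0.05. At an unadjusted p under 0.05, 1 gene was higher and 3 were lower, beside 7.15% and 9.82% of all genes. These were 19.05% of the list, near the 16.97% of all genes. The transcription factor gene Cebpb was higher (1.52 ± 0.53), on only 286 counts. It had 0.866, 1.67 and 1.77 CPM in vehicle mice and 2.72, 2.35 and 7.61 in caffeine mice, so caffeine mouse 3 weighed most. The lower genes were Chac1, a glutathione-degrading enzyme (-0.47 ± 0.20), Psat1 of serine synthesis (-0.42 ± 0.18) and the arginine transporter Slc7a1 (-0.36 ± 0.15). Atf4 itself had -0.02 ± 0.12 and Asns, the asparagine synthetase, -0.24 ± 0.14. The 6 genes of eIF2 kinases and phosphatase subunits had a median of -0.09.

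Of 16 genes of mTORC1 and cap-binding control, 14 were above 0 in caffeine mice (48.5% of all genes were), with a median of 0.21 (all genes -0.01). At an unadjusted p under 0.05, 3 were higher, beside 7.15% of all genes. These were Tsc2, which restrains mTORC1 (0.28 ± 0.12), the S6 kinase gene Rps6kb2 (0.29 ± 0.13) and Pdcd4, an inhibitor of eIF4A (0.35 ± 0.14). Adjusted values in edgeR were 0.206 to 0.27. Genes that promote translation and genes that restrain it are both in the list, so a shared sign gives the pathway no direction. The remaining 20 cytosolic factors outside the symbol rule had a median of 0.02, 11 mitochondrial translation factors -0.06 and 9 synthetases and cofactors outside the rule -0.04, with no gene called in any of these lists.

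Of the cell type markers, 3 genes were called for caffeine against Tg4-42 vehicle: Plk5, Stxbp6 and Slc32a1. No gene of the whole table was called without Tg4-42 vehicle mouse 3 or without caffeine mouse 3, so these calls rest on both. All 14 dentate granule cell markers were above 0 (median log2 fold change 0.67), with Plk5 at 1.52 and Stxbp6 at 0.81. Their list includes Dsp and Prox1, which the study had already reported as higher with caffeine in these same data. The 14 markers summed to 672 to 1057 CPM in Tg4-42 vehicle mice and 1222 to 1510 in caffeine mice. All 10 interneuron markers were below 0 (median -0.48), with Slc32a1 at -0.93, and their sum was 1325 to 1907 CPM against 1006 to 1274. CA1 markers had a median of -0.27 (1 of 6 above 0; sum 506 to 599 against 448 to 480 CPM), and CA3 and CA2 markers 0.10 (6 of 9 above 0; sum 498 to 527 against 477 to 544). Pan-neuronal markers had -0.16 (2 of 6 above 0; sum 6311 to 7976 against 5373 to 6728), although Rbfox3 itself had 0.28 ± 0.13. Glial lists had negative medians: astrocytes -0.72 (1 of 7 above 0; sum 99.8 to 111 against 72.2 to 94.8), oligodendrocytes -0.44 (0 of 7; 332 to 466 against 230 to 336) and microglia -0.51 (0 of 7; 51.1 to 77.5 against 42.7 to 52.5). Of 6 endothelial and pericyte markers 3 were tested, with a median of -0.35, and their sum was at most 11.75 CPM in any mouse. No marker of these lists was at 0 in all libraries. The part of cell composition in the values of the members was not tested.

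The third comparison set Tg4-42 caffeine against WT vehicle mice, and so combines genotype and treatment and shares its mice with both others. Again 0 members were called in edgeR, where 72 of 17361 genes were (0.415%). At an unadjusted p under 0.05, 2 members were higher (6.78% of all genes were) and 11 were lower (8.65% of all genes were). The median was -0.02 (all genes -0.01). Between 5 and 18 members were under this threshold when 1 mouse was left out, with 5 without caffeine mouse 3, 7 without caffeine mouse 2 and 8 without WT mouse 1. The 14 dentate granule cell markers had a median of 0.64 here, all above 0. CA3 and CA2 markers had 0.21 (6 of 9 above 0). Medians were negative for CA1 markers (-0.38, 1 of 6 above 0), interneurons (-0.26, 0 of 10) and astrocytes (-0.77, 0 of 7). They were also negative for oligodendrocytes (-0.36, 1 of 7), microglia (-0.37, 2 of 7) and pan-neuronal markers (-0.12, 2 of 6). Of these lists, 1 CA1 marker was called, and was lower (adjusted p of 0.0408, edgeR). The 2 higher members were Iars2 (0.33 ± 0.14) and Eif5b (0.29 ± 0.13).

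Eef1akmt1 and Wars had the smallest p of the 11 lower genes. Eef1akmt1 had a log2 fold change of -0.75 ± 0.20 and Wars of -0.55 ± 0.15, each with an adjusted p of 0.0926 in edgeR. DESeq2 called both, with adjusted p of 0.0187 and 0.0233, and so did edgeR with no filter on low counts, with 0.00486 and 0.0108. Over 17 alternatives the adjusted p ranged from 0.00486 to 0.489 for Eef1akmt1 and from 0.0108 to 0.48 for Wars. Without WT mouse 2 the log2 fold changes were -0.51 and -0.41. Caffeine mice were below all WT mice in both genes. That held for 11 members and 1678 of 17361 genes, and the reverse for 4 members and 1587 genes. Aars followed at -0.41 ± 0.13, then the eIF3 genes Eif3l at -0.41 ± 0.14 and Eif3c at -0.34 ± 0.13, and Eif4e at -0.35 ± 0.13. The others were Eif2s1 (-0.33), Eif2b3 (-0.29), Eif2b1 (-0.30), Kars (-0.31) and Eif5a2 (-0.40). Over the 18 cytosolic synthetases the median was -0.19 and 16 were below 0, whereas 13 of 17 mitochondrial ones were above 0 with a median of 0.05.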

How the data were processed

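Hippocampal NeuN-sorted nuclei of 9 mice were sequenced by the authors (SMART-Seq v4 and Nextera XT, single-end reads of 50 bases), aligned to mm10 with STAR and counted on exons with featureCounts; versions, annotation and strand setting are not given in the sources used here. The deposited values are raw counts per Ensembl gene and mouse. Symbols and exon lengths came from GENCODE M21 (48349 of 48709 genes matched). Genes passing edgeR's filter (minimum count 10, total 15; 17361 genes) were fitted over all 3 groups with TMM scaling and edgeR 4.0.16 quasi-likelihood tests (R 4.3.3), with Benjamini-Hochberg adjustment over all genes tested. The common biological coefficient of variation was 0.163. DESeq2 1.42.0 and limma 3.58.1 (voom) were alternatives. SE is the fitted log2 fold change over the root of its F. Its 95% intervals are not adjusted for the number of genes. Nothing in the labels gives litters, so p-values measure the spread between mice and limits at 0 cover counting error only. Fits were tested on simulated data. No genome sequence was used; GC content came from transcripts.

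Groups follow the labels (3 libraries each; numbers within a group are names). Replicates 1 and 2 of each group ran on lane 6 and replicate 3 on lane 7. The rule for members reads symbols and no measured value, but this set of genes and the lists were chosen with earlier results of these data known. Named genes were any member called, in each role the gene with the highest CPM, the 2 with the smallest p for caffeine and the 1 for genotype, fixed sets of paralogues and subunits, and members filtered out. Other genes named in the text were chosen after their values were seen. Alternatives were other scalings and filters, fits on only 2 groups, lane or replicate number as a term, length and GC corrections, and leaving out each mouse. One gene's result and 1 promoter sequence are not reported here.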

Additional observations from a re-analysis of the deposited data

How the results depend on the processing

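No member was called in Tg4-42 vehicle against WT or in caffeine against vehicle under any setting. For caffeine against WT, 2 members (Eef1akmt1 and Wars) were called by DESeq2, with no filter on low counts, and without caffeine mouse 1, and 0 under the others, so leaving out 1 mouse gave 0 to 2. Members at an unadjusted p under 0.05 in Tg4-42 vehicle against WT were 1, became 2 with no filter, and ranged from 0 to 5 when 1 mouse was left out. The same range was 3 to 11 for caffeine against vehicle (9 with all mice) and 5 to 18 for caffeine against WT (13 with all mice). The members' median log2 fold change in Tg4-42 vehicle against WT ranged from -0.129 (without WT mouse 3) to 0.00214 (without WT mouse 2). The cause was not tested. With library totals as the only scaling, members under that unadjusted threshold were 8 higher and 1 lower for caffeine against vehicle, and 8 and 6 for caffeine against WT, where the length correction gave 5 and 8.

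Calls over all genes for caffeine against vehicle numbered 153, and 765 by DESeq2, 987 with no filter, 587 by limma-voom, 78 with library totals, 9 with the lane as a term, 3 without Tg4-42 vehicle mouse 1, 58 without caffeine mouse 2, 341 without caffeine mouse 1, and 0 without vehicle mouse 3 or caffeine mouse 3. They numbered 72 for caffeine against WT (568 by DESeq2, 860 with no filter, 125 by limma-voom) and 17 for Tg4-42 vehicle against WT (26 by DESeq2, 74 with no filter). With the replicate number as a block, 0 members were called in each comparison, 1, 8 and 16 had an unadjusted p under 0.05, and the medians were -0.0614, -0.000996 and -0.0193. Numbers follow accession order and so were not used to pair mice. Deviations of same-numbered mice correlated at 0.188, 0.138 and 0.156 between Tg4-42 vehicle and WT, which is a hint of shared variation there, at 0.152, 0.181 and -0.171 between caffeine and vehicle, and at -0.17, 0.00751 and -0.106 between caffeine and WT. The lane was confounded with no group. Depth limited the rarest members most: Eif2s3x and Eif4ebp2, with 183 and 192 counts, had an SE of 0.378 and 0.374 for caffeine against vehicle, against a median of 0.139 over the members.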
